A study of Mus musculus with 9 samples.

Results

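The genes of the unfolded protein response and the integrated stress response were followed across 3T3-L1 adipocytes depleted of PPAR gamma, 3T3-L1 adipocytes given a control siRNA, and 3T3-L1 preadipocytes. The set held 37 genes picked by name, and all 37 were found among the 18193 genes with a probe set of a single gene symbol. Where a gene had several probe sets, the brightest on average was used. 3T3-L1 cells are mouse embryonic fibroblasts that become fat cells after treatment with dexamethasone, insulin and the phosphodiesterase inhibitor IBMX. The PPAR gamma siRNA adipocytes were electroporated on day 14 after induction with siRNA to PPAR gamma, a nuclear receptor required for making fat cells, and the control siRNA adipocytes were electroporated on the same day with a non-targeting oligonucleotide. The preadipocytes were not differentiated. Each group had 3 arrays, and the series calls the replicates of a group technical, so the p-values reflect no more than the scatter among these arrays. Before transfection the adipocytes were detached with trypsin and collagenase, and the amount of either siRNA is given as 2 or 3 nmol without saying which arrays had which. No electroporation is described for the preadipocytes, so its effect and that of differentiation cannot be told apart when adipocytes are compared with preadipocytes.

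Secreted and membrane proteins fold in the endoplasmic reticulum (ER), and mature fat cells secrete large amounts of hormones such as adiponectin. When unfolded proteins build up there, the sensors IRE1 (gene Ern1), PERK (Eif2ak3) and ATF6 start the unfolded protein response, which raises chaperones and the machinery of ER-associated degradation (ERAD), the route by which misfolded proteins are sent to the proteasome. PERK and other kinases also phosphorylate the initiation factor eIF2alpha, which slows most translation but favours that of the factor ATF4, and this arm is the integrated stress response. IRE1 splices Xbp1 mRNA and ATF6 is cut by proteases, so the activity of these factors is not read from a total mRNA level.

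Expression is given as deposited log2 probe set values, on which a difference of 1 is 2-fold. A change is the log2 difference of 2 group means ± SE, taken from a limma fit to all 45037 probe sets. Genes with a Benjamini-Hochberg adjusted p under 0.05 are referred to as called. Pparg, the target of the siRNA, stood at 9.54, 9.58 and 9.64 with PPAR gamma siRNA, 12.89, 12.82 and 12.65 with control siRNA and 8.35, 8.20 and 8.12 in preadipocytes. Of 7 measured adipocyte markers, 6 were called lower with PPAR gamma siRNA than with control siRNA, while Adipoq and Fabp4 were still at 12.49 and 13.14. Lep, the gene of leptin, lay between 3.55 and 3.88 in all group means, below the array medians. Of 6 preadipocyte and fibroblast markers, 5 were called higher with PPAR gamma siRNA. In these bulk samples fewer adipocytes and less RNA of a gene per adipocyte cannot be told apart. Of 8 macrophage markers, Cd68 and Cd14 were called higher with PPAR gamma siRNA. The other 6, among them Ptprc and Itgam at 3.46 or below in all groups, were not called in the knockdown. The mean over the 8 was 4.99 to 5.24 with PPAR gamma siRNA, 4.70 to 4.73 with control siRNA and 4.39 to 4.43 in preadipocytes. The Actb probe sets at the 3' and 5' ends, whose difference reflects RNA integrity, differed by 0.54 to 1.25 with PPAR gamma siRNA, 0.91 to 1.30 with control siRNA and 0.23 to 0.36 in preadipocytes.

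The stress response genes did not move as a block. The knockdown lowered Dnajb9, Ppp1r15b, Pdia6 and Xbp1 and raised Gadd45b, Dnajc10 and Gadd45a. Relative to control siRNA adipocytes, 8 of the 37 genes (21.6%) were called higher and 13 (35.1%) lower, with 16 not called. Over all 18193 genes 19.9% were called higher and 16.1% lower in this comparison, 35.9% in either direction. A change of at least 2-fold was called for 2 genes upward and 4 downward, where 5.68% and 4.61% of all genes had one. The arrays of the 2 groups did not overlap for 9 genes above and 13 below, against 23.4% and 21.0% of all genes. Stress response genes are brighter than most: all 37 lay above the median level of the probe sets, and among the 11595 genes above it 29.8% were called higher and 22.7% lower. Their median change was -0.06, beside -0.01 over all genes.

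In differentiation, control siRNA adipocytes against preadipocytes, 18 of the 37 (48.6%) were called higher and 10 (27.0%) lower. All genes gave 27.1% and 24.7%, or 51.8% in either direction, and those above the median level 32.2% and 36.1%. At least 2-fold, 9 were higher and 6 lower, where 8.83% and 10.6% of all genes were. The arrays did not overlap for 20 above and 12 below, against 34.0% and 27.5% of all genes. The median change was 0.22, beside 0.09 over all genes. The direction differed by role. Of the 15 chaperones and folding factors 8 were lower and 3 higher, of the 7 ERAD genes 5 were higher and none lower, and the 5 ATF4-type targets were all higher. With the Actb difference as a covariate the members called higher numbered 12, and Pdia6, Syvn1, Derl3, Asns, Chac1 and Sesn2 were no longer called. Over all 18193 genes, those called higher went from 4932 to 3365 with this covariate. The Actb difference of every control siRNA array lay above that of every preadipocyte array, so this setting cannot fully separate RNA integrity from differentiation.

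**Figure D1:**
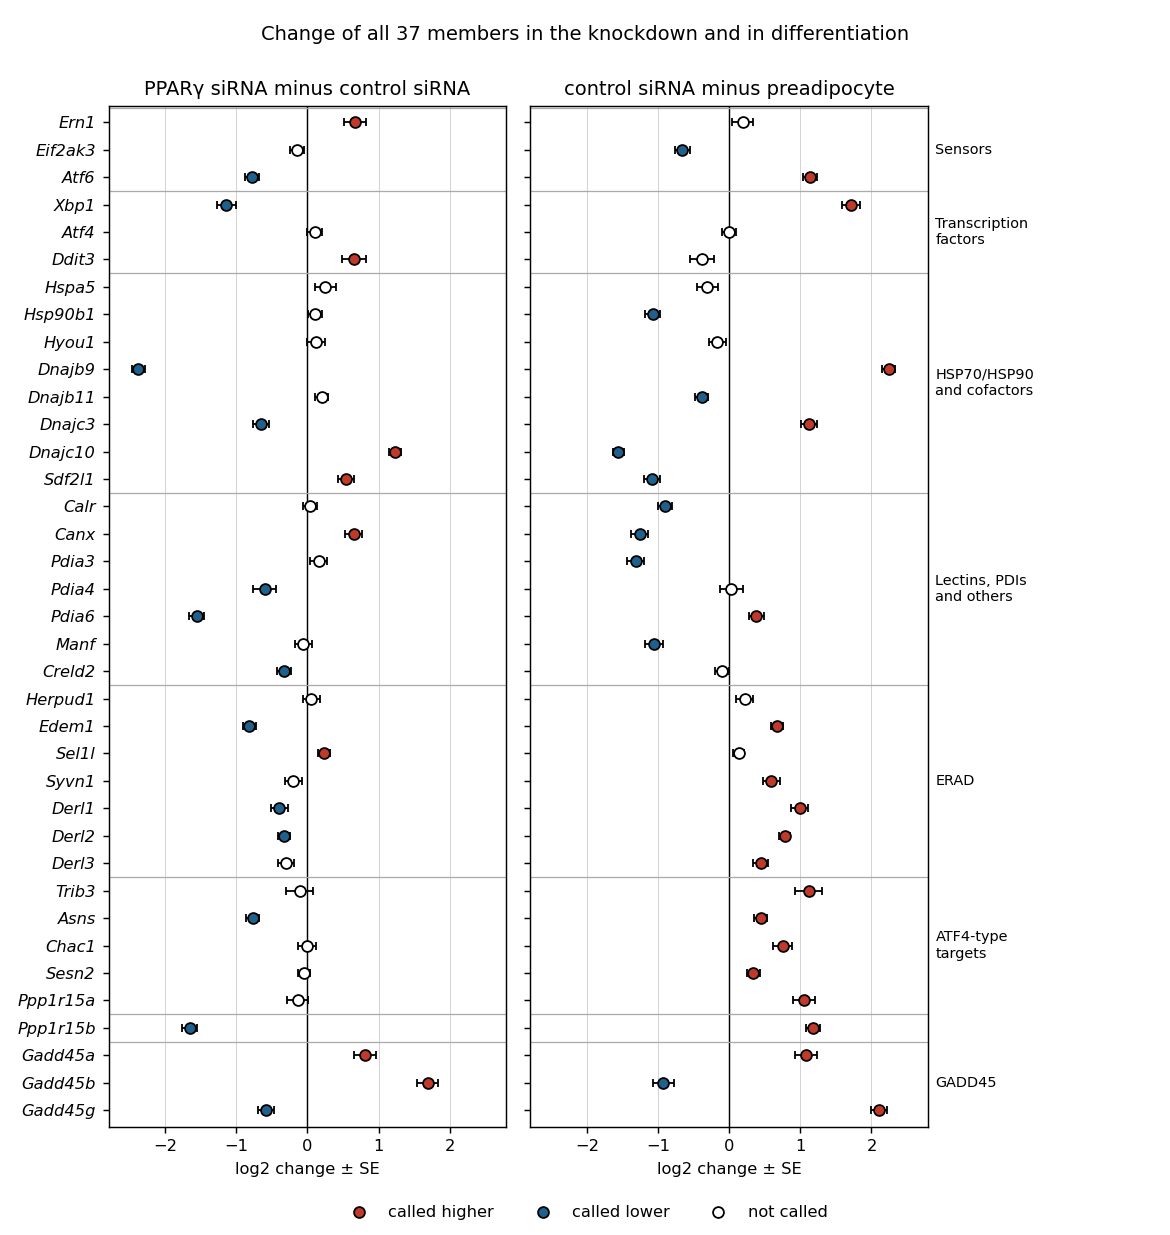
Log2 change ± SE of all 37 genes, from limma over the 9 arrays, for PPAR gamma siRNA minus control siRNA (left) and control siRNA minus preadipocytes (right), with genes grouped by role and filled points marking calls at an adjusted p under 0.05. Dnajb9 has the largest change in both panels, -2.38 in the knockdown and 2.24 in differentiation, and the 7 ERAD genes all lie right of zero in differentiation.

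Mean levels were also followed array by array for the chaperones and folding factors, ERAD genes, ATF4-type targets and GADD45 genes. The 15 chaperones and folding factors averaged 9.70 to 9.83 with PPAR gamma siRNA and 9.93 to 9.95 with control siRNA, both below the 10.24 to 10.37 of preadipocytes. ERAD genes averaged 9.51 to 9.65 with PPAR gamma siRNA, 9.82 to 9.86 with control siRNA and 9.29 to 9.31 in preadipocytes. For ATF4-type targets the ranges were 9.48 to 9.88, 9.79 to 9.99 and 9.05 to 9.29 in the same order, so the adipocyte groups overlapped each other and both lay above preadipocytes. GADD45 genes had 3 separate ranges, 9.03 to 9.16 with PPAR gamma siRNA, 8.40 to 8.52 with control siRNA and 7.64 to 7.80 in preadipocytes. These averages mix genes that moved in opposite directions. The 15 chaperones and folding factors averaged lower with the knockdown, yet their median change was 0.11. Of these, 3 were called higher, 5 lower and 7 not called. Their largest falls were those of Dnajb9 (-2.38) and Pdia6 (-1.56).

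**Figure D2:**
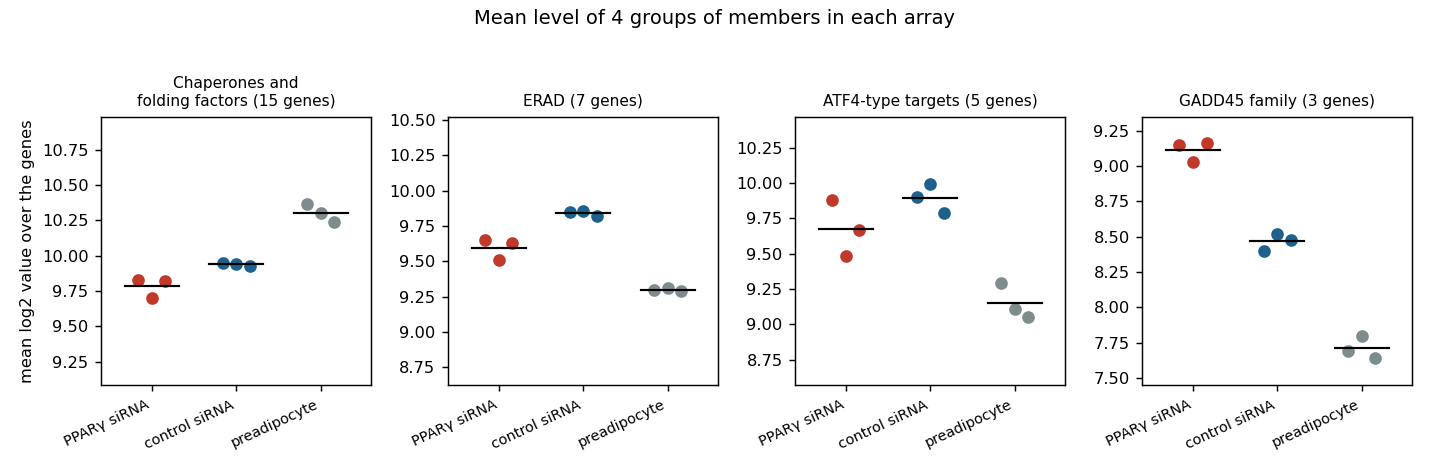
Mean log2 value over the genes of a role in each array (points) with the group mean (line), for PPAR gamma siRNA adipocytes, control siRNA adipocytes and preadipocytes. Chaperones and folding factors are highest in preadipocytes and ERAD genes in control siRNA adipocytes, at 9.82 to 9.86.

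The sensors went different ways. Atf6, whose product is released by proteolysis to activate chaperone genes, stood at 7.51, 7.37 and 7.55 in PPAR gamma siRNA arrays, 8.43, 8.18 and 8.15 in control siRNA arrays and 7.13, 7.08 and 7.15 in preadipocyte arrays. The 3 groups did not overlap. Atf6 fell by 0.78 ± 0.10 with the knockdown (adjusted p = 6.29e-05) and rose 2.20-fold in differentiation (1.13 ± 0.10, adjusted p = 1.22e-06). Its other 2 probe sets also fell with the knockdown, at -0.50 and -0.59.

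Ern1, the gene of the splicing sensor IRE1, had values of 8.70, 8.05 and 8.21 with PPAR gamma siRNA, 7.68, 7.69 and 7.58 with control siRNA and 7.33, 7.64 and 7.41 in preadipocytes. Every PPAR gamma siRNA array lay above the other 6. Its rise with the knockdown was 0.67 ± 0.15 (adjusted p = 0.00451), while differentiation gave 0.19 ± 0.15 (adjusted p = 0.334). The other 4 Ern1 probe sets were not called in the knockdown, with levels of 5.89 or below, and the mean of all 5 gave 0.16 (adjusted p = 0.107).

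Eif2ak3, the gene of PERK, had 8.54, 8.30 and 8.54 with PPAR gamma siRNA, 8.52, 8.63 and 8.68 with control siRNA and 9.21, 9.38 and 9.22 in preadipocytes. Both adipocyte groups lay below preadipocytes and overlapped each other. It fell by 0.66 ± 0.10 in differentiation (adjusted p = 0.000146), and the knockdown difference of -0.15 ± 0.10 did not pass (adjusted p = 0.326). With the mean of its 3 probe sets the differentiation difference was -0.19 (adjusted p = 0.102), and that of the knockdown was called, at -0.25 (adjusted p = 0.0492). That mean includes dim probe sets, at levels of 3.65 and 5.07 beside 8.78 for the one used.

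Xbp1, the factor that IRE1 activates by splicing, was among the most changed. Its values were 11.11, 10.59 and 10.86 with PPAR gamma siRNA, 11.88, 11.96 and 12.14 with control siRNA and 10.13, 10.31 and 10.42 in preadipocytes. Control siRNA adipocytes exceeded preadipocytes 3.26-fold (1.71 ± 0.13, adjusted p = 6.54e-07), it fell by 1.14 ± 0.13 with the knockdown (adjusted p = 4.50e-05), and the depleted cells were still above preadipocytes by 0.57 ± 0.13 (adjusted p = 0.00721). All 4 Xbp1 probe sets gave a rise in differentiation, of 0.84 to 1.74, and a fall in the knockdown, of -1.29 to -0.90. The probe sets were not assigned to the spliced or unspliced form.

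Atf4, the main effector of the integrated stress response, was almost level, at 11.88, 11.60 and 11.70 with PPAR gamma siRNA, 11.59, 11.68 and 11.60 with control siRNA and 11.78, 11.53 and 11.55 in preadipocytes. The groups overlapped, and its knockdown difference was 0.10 ± 0.10 (adjusted p = 0.547). In differentiation its 2 dimmer probe sets were called in opposite directions, at -0.54 (adjusted p = 0.0226) and 0.38 (adjusted p = 0.0101). ATF4 is controlled largely through translation, which arrays of RNA do not measure.

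Ddit3, which encodes the pro-apoptotic factor CHOP and is a target of ATF4, had 11.24, 10.41 and 10.71 with PPAR gamma siRNA, 10.04, 10.20 and 10.13 with control siRNA and 10.54, 10.47 and 10.54 in preadipocytes. PPAR gamma siRNA arrays lay above control siRNA arrays but on either side of preadipocytes. Its knockdown rise was 0.66 ± 0.17 (adjusted p = 0.00987), or 0.43 without PPAR gamma siRNA replicate 1 (adjusted p = 0.0126). With both arrays of the largest Actb difference omitted, PPAR gamma siRNA replicate 3 and replicate 1 of control siRNA, the adjusted p was 0.0506. In differentiation Ddit3 differed by -0.39 ± 0.17 (adjusted p = 0.0764), a difference that was called without PPAR gamma siRNA replicate 1 or 2 (lowest adjusted p over the settings 0.00398).

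**Figure D3:**
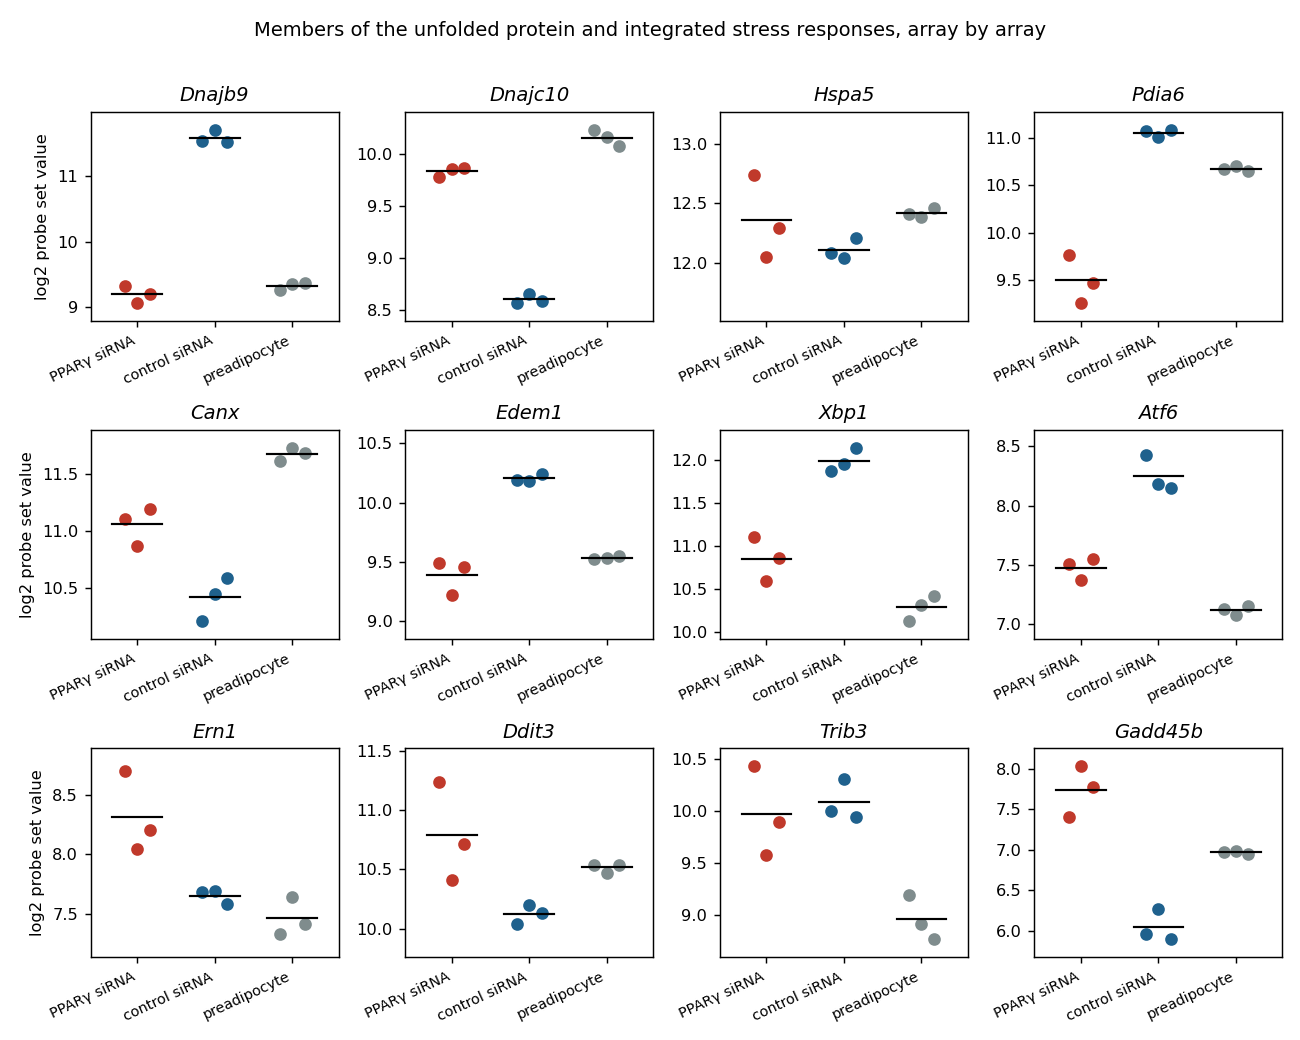
Log2 probe set values of 12 genes in each array (points) with the group mean (line), for PPAR gamma siRNA adipocytes, control siRNA adipocytes and preadipocytes, each panel on its own axis. Dnajb9 and Edem1 are high in control siRNA adipocytes only, Dnajc10 and Canx are lowest there, and the PPAR gamma siRNA arrays of Hspa5, Ern1, Ddit3 and Trib3 are spread widely.

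Among the HSP70 and HSP90 chaperones of the ER, the central ones were not called in the knockdown while some of their cofactors were. Hspa5 encodes BiP, the ER HSP70 that holds the sensors inactive, and was one of the brightest of the set, at 12.74, 12.05 and 12.29 with PPAR gamma siRNA, 12.08, 12.04 and 12.21 with control siRNA and 12.41, 12.39 and 12.46 in preadipocytes. The adipocyte groups overlapped, and the knockdown difference was 0.25 ± 0.15 (adjusted p = 0.269). It passed without PPAR gamma siRNA replicate 2 (adjusted p = 0.0484). In differentiation the difference of -0.31 ± 0.15 did not pass (adjusted p = 0.108), though it did without PPAR gamma siRNA replicate 1, and the lowest adjusted p over the settings was 0.0146. A second Hspa5 probe set was called lower there, at -0.45 (adjusted p = 0.0236).

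Hsp90b1, the gene of the ER HSP90 GRP94, averaged 11.27 ± 0.16 with PPAR gamma siRNA, 11.16 ± 0.08 with control siRNA and 12.24 ± 0.06 in preadipocytes (SD, n = 3). It was 2.11-fold lower in control siRNA adipocytes than in preadipocytes (-1.08 ± 0.10, adjusted p = 2.42e-06) with a knockdown difference of 0.11 ± 0.10 (adjusted p = 0.507). Hyou1, an HSP70-like nucleotide exchange factor for BiP, stood at 8.92, 8.80 and 8.98 in the same order of groups and was called in no comparison, with adjusted p of 0.549 in the knockdown and 0.262 in differentiation. Both of its dimmer probe sets were called lower in differentiation, the brighter of them at -0.43.

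The J-domain cofactors, which stimulate the ATPase of BiP, held the largest changes of the whole set. Dnajb9, also called ERdj4, stood at 9.32, 9.07 and 9.21 with PPAR gamma siRNA, 11.53, 11.69 and 11.52 with control siRNA and 9.26, 9.36 and 9.37 in preadipocytes. It rose 4.74-fold in differentiation (2.24 ± 0.09, adjusted p = 2.67e-09), and PPAR gamma siRNA lowered it 5.20-fold (-2.38 ± 0.09, adjusted p = 8.69e-09). Depleted adipocytes and preadipocytes overlapped, with a difference of -0.13 ± 0.09 (adjusted p = 0.330).

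Dnajc10, or ERdj5, a J-domain protein that reduces disulfide bonds of substrates for degradation, went the other way. Its values were 9.78, 9.86 and 9.87 with PPAR gamma siRNA, 8.57, 8.65 and 8.59 with control siRNA and 10.23, 10.17 and 10.08 in preadipocytes, with no overlap between groups. The knockdown raised it by 1.23 ± 0.08 (adjusted p = 3.66e-07), after a differentiation change of -1.56 ± 0.08 (adjusted p = 1.63e-08). All 3 of its probe sets moved this way, by 1.08 to 1.65 in the knockdown.

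Dnajc3, or p58IPK, which restrains eIF2alpha kinases, had 8.92, 8.87 and 8.96 with PPAR gamma siRNA, 9.62, 9.57 and 9.51 with control siRNA and 8.59, 8.55 and 8.19 in preadipocytes. The fall of -0.65 ± 0.11 with the knockdown (adjusted p = 0.000643) rests on its brightest probe set. Its 4 other probe sets were called lower once, at -0.33, and higher in 2 cases, at 0.28 and 0.50, and the mean of all 5 gave -0.01 (adjusted p = 0.924). Dnajb11, or ERdj3, averaged 9.37 with PPAR gamma siRNA, 9.17 with control siRNA and 9.55 in preadipocytes, and was called lower in differentiation alone (-0.39 ± 0.09, adjusted p = 0.00428). Sdf2l1, its partner in the ER, was dim, at 6.28, 5.74 and 6.83 in that order, and was called in both, at 0.54 ± 0.11 in the knockdown (adjusted p = 0.00285) and -1.09 ± 0.11 in differentiation (adjusted p = 5.71e-06).

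The lectin chaperones, disulfide isomerases and other folding factors were all called lower in PPAR gamma siRNA adipocytes than in preadipocytes, 7 of 7, where 16.9% of all genes were. Calreticulin, Calr, and calnexin, Canx, hold sugar-bearing proteins during folding. Calr averaged 12.21 ± 0.10 with PPAR gamma siRNA, 12.17 ± 0.16 with control siRNA and 13.08 ± 0.02 in preadipocytes (SD, n = 3). Its knockdown difference was 0.04 ± 0.10 (adjusted p = 0.822), and it fell in differentiation (-0.91 ± 0.10, adjusted p = 8.38e-06). Canx stood at 11.11, 10.87 and 11.20 with PPAR gamma siRNA, 10.21, 10.45 and 10.59 with control siRNA and 11.62, 11.73 and 11.69 in preadipocytes. It rose by 0.65 ± 0.12 with the knockdown (adjusted p = 0.00114) and fell in differentiation (-1.26 ± 0.12, adjusted p = 2.51e-06). The probe set is of a type that can match more than 1 transcript, and without such probe sets the knockdown difference of Canx was 0.23 (adjusted p = 0.399). That value is of its next brightest probe set, while its dimmest, also not of that type, rose by 1.25 (adjusted p = 9.42e-05).

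Disulfide isomerases form and rearrange the disulfide bonds of folding proteins. Pdia3, the isomerase that works with calnexin and calreticulin, had 11.46, 11.60 and 11.60 with PPAR gamma siRNA, 11.11, 11.51 and 11.55 with control siRNA and 12.84, 12.68 and 12.62 in preadipocytes. All adipocyte arrays lay below all preadipocyte arrays (differentiation -1.32 ± 0.12, adjusted p = 2.43e-06), and the siRNAs overlapped (0.16 ± 0.12, adjusted p = 0.395). Pdia6, another isomerase of the ER, had 9.76, 9.26 and 9.47 with PPAR gamma siRNA, 11.07, 11.01 and 11.08 with control siRNA and 10.67, 10.70 and 10.65 in preadipocytes. The knockdown lowered Pdia6 2.94-fold (-1.56 ± 0.11, adjusted p = 9.32e-07), to 2.27-fold below preadipocytes (-1.18 ± 0.11, adjusted p = 9.96e-06). With the mean of its probe sets the knockdown change of Pdia6 was -0.79 (adjusted p = 0.000112). The small rise of Pdia6 in differentiation, 0.38 ± 0.11 (adjusted p = 0.0187), was lost under 6 of 19 other settings, among them the omission of preadipocyte replicate 1 or 3 (adjusted p from 0.00322 to 0.285).

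Pdia4, another isomerase, stood at 8.28, 8.41 and 8.36 with PPAR gamma siRNA, 9.33, 8.72 and 8.80 with control siRNA and 9.16, 8.83 and 8.76 in preadipocytes. It fell by 0.60 ± 0.16 with the knockdown (adjusted p = 0.0128), while control siRNA adipocytes and preadipocytes overlapped. Without the 2 arrays of highest Actb difference the knockdown change of Pdia4 was -0.41 (adjusted p = 0.0605), and its fall below preadipocytes was lost without PPAR gamma siRNA replicate 1 or preadipocyte replicate 1. Manf, a secreted ER-stress factor, had 9.89, 9.53 and 9.62 with PPAR gamma siRNA, 9.71, 9.60 and 9.92 with control siRNA and 10.92, 10.74 and 10.76 in preadipocytes. It fell in differentiation (-1.06 ± 0.12, adjusted p = 1.12e-05) and was not called between the siRNAs (-0.06 ± 0.12, adjusted p = 0.775). Creld2, another ER-stress protein, averaged 8.28, 8.61 and 8.70 in the same order of groups, and its fall of -0.33 ± 0.10 with the knockdown (adjusted p = 0.0287) was lost under 6 of 19 other settings. These included the omission of PPAR gamma siRNA replicate 2 or 3 or control siRNA replicate 1.

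Promoter sequence was read for 32 of the 37 genes from RefSeq on build GRCm38.p6, as 250 bases before to 50 after the annotated start. Both strands were searched for 4 motifs, where N is any base. Only exact matches were counted, so sites with a differing base or outside the window were not looked for. These were the ER stress response element ERSE (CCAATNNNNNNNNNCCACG), bound by ATF6 with NF-Y, the related ERSE-II (ATTGG and CCACG with 1 base between them), the XBP1-type element UPRE (TGACGTGG) and the ATF4-type element CARE (TGATGNAA). ERSE and ERSE-II share the letters CCACG. ERSE was found in 9 of the 32 genes, against 0.119% of all 32851 promoter windows, and ERSE-II in Dnajb11 and Herpud1, against 0.0365%. UPRE was found in none of the 32 and in 0.676% of all windows. CARE was found in 5 of the 32, against 3.97%. Genes and motifs were both chosen for the same pathways, so the higher share of matches is no test of enrichment. The members are counted as genes and the background as windows. A match is a description of the letters and not evidence of binding. The 10 ERSE matches are printed to show the bases between the fixed letters, which all matches share as the pattern searched for. Each is written 5′ to 3′ in the orientation of the motif with its fixed bases in capitals, and the strand is that of the motif.
Hspa5 (chr2:34772025-34772043, plus strand): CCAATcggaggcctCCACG
Hsp90b1 (chr10:86705533-86705551, plus strand): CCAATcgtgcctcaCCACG
Hsp90b1 (chr10:86705638-86705656, minus strand): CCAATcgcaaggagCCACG
Calr (chr8:84847075-84847093, plus strand): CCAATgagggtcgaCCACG
Canx (chr11:50325800-50325818, minus strand): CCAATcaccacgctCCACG
Creld2 (chr15:88819520-88819538, minus strand): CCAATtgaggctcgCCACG
Pdia6 (chr12:17266491-17266509, plus strand): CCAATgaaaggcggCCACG
Dnajc3 (chr14:118937827-118937845, plus strand): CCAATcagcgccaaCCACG
Syvn1 (chr19:6046532-6046550, plus strand): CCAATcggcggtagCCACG
Derl3 (chr10:75893242-75893260, minus strand): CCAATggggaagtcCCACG

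**Figure D4:**
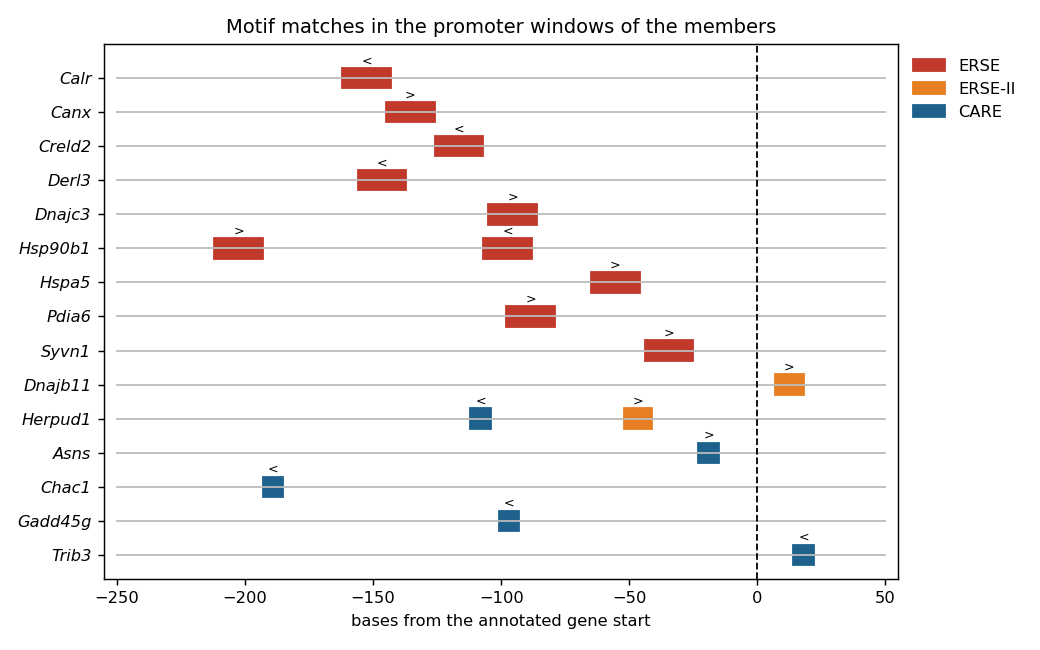
Position of each motif match, in bases from the annotated gene start, in the promoter windows of the 15 genes with a match, with arrowheads for the orientation relative to the gene. ERSE matches begin between 212 and 44 bases before the start, and the ERSE-II match of Dnajb11 and the CARE match of Trib3 lie after it.

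Genes with an ERSE match moved in both directions. In the knockdown Canx was called higher, Pdia6, Dnajc3 and Creld2 were called lower, and 5 were not called. In differentiation Pdia6, Dnajc3, Syvn1 and Derl3 were higher and Hsp90b1, Calr and Canx lower. Of all genes 19.9% were called higher and 16.1% lower in the knockdown, and 27.1% and 24.7% in differentiation. The promoters of Hspa5 and Pdia6 both hold a forward ERSE, beginning 65 and 98 bases before the start. Hspa5 was not called in either comparison, and Pdia6 fell with the knockdown. The window of Dnajb9, the gene with the largest changes, held no exact match to any of the 4 motifs. These 3 windows are printed in the direction of the gene, with motif bases in capitals.
Hspa5 (chr2:34771840-34772139, plus strand): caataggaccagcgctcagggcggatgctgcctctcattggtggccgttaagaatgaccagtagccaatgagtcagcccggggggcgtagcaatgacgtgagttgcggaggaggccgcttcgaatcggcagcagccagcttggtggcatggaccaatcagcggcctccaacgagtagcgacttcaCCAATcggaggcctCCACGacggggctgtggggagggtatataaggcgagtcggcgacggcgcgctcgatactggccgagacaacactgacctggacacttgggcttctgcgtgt
Pdia6 (chr12:17266339-17266638, plus strand): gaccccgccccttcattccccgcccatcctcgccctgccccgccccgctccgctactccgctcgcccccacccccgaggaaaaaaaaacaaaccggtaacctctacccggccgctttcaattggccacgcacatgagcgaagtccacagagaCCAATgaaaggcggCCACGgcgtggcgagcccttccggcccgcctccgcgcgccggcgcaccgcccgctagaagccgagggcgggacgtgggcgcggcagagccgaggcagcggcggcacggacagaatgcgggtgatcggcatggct
Dnajb9 (chr12:44210019-44210318, minus strand): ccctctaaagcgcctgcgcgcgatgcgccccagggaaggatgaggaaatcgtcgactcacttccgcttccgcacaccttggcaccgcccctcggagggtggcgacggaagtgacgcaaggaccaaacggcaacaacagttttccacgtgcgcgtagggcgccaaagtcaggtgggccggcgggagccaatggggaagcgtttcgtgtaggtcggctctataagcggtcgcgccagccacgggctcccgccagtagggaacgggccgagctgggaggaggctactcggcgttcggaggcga

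Of the 7 ERAD genes, Edem1, Syvn1 and the 3 derlins rose in differentiation, and Herpud1 and Sel1l were not called. In differentiation 5 of 7 were called higher and none lower, with a median change of 0.59 beside 0.09 over all genes. With the knockdown 3 were lower and 1 higher, with a median of -0.30 beside -0.01. Of all genes 27.1% were called higher and 24.7% lower in differentiation, and 19.9% and 16.1% in the knockdown. Edem1, a lectin that extracts misfolded glycoproteins from folding cycles, had 9.49, 9.22 and 9.46 with PPAR gamma siRNA, 10.19, 10.18 and 10.24 with control siRNA and 9.52, 9.53 and 9.55 in preadipocytes. It rose 1.59-fold in differentiation (0.67 ± 0.09, adjusted p = 6.69e-05) and fell 1.76-fold with the knockdown (-0.82 ± 0.09, adjusted p = 2.54e-05). Depleted adipocytes and preadipocytes differed by -0.15 ± 0.09 (adjusted p = 0.261). A second Edem1 probe set, at a mean level of 9.56 beside 9.71, was called higher in depleted adipocytes, at 0.31 (adjusted p = 0.0142). It also rose in differentiation and fell with the knockdown, at 0.88 and -0.57.

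The derlins are membrane proteins of the channel through which substrates leave the ER. Derl1 had 11.82, 11.31 and 11.69 with PPAR gamma siRNA, 11.95, 12.04 and 12.04 with control siRNA and 10.95, 11.04 and 11.09 in preadipocytes. It was higher in differentiation by 0.99 ± 0.12 (adjusted p = 3.19e-05), and all 4 of its probe sets were called lower in the knockdown, by -0.77 to -0.40. The knockdown call of the brightest, -0.40 ± 0.12 (adjusted p = 0.0271), was lost without PPAR gamma siRNA replicate 2 or control siRNA replicate 2 or 3. Derl2 had 10.44, 10.44 and 10.39 with PPAR gamma siRNA, 10.81, 10.73 and 10.73 with control siRNA and 10.01, 9.96 and 9.94 in preadipocytes. Its changes were 0.78 ± 0.08 in differentiation (adjusted p = 3.90e-06) and -0.33 ± 0.08 in the knockdown (adjusted p = 0.00565). A dimmer Derl2 probe set went against both, at -0.70 (adjusted p = 0.000403) and 0.89 (adjusted p = 0.000103), and the mean of both was 0.28 in the knockdown (adjusted p = 0.0145), which reverses the call, and 0.04 in differentiation (adjusted p = 0.654). Derl3 was dim, at 5.50, 5.80 and 5.36 in the order of groups above, and was higher in differentiation by 0.44 ± 0.11 (adjusted p = 0.00735), while its knockdown difference of -0.30 ± 0.11 (adjusted p = 0.0724) passed without control siRNA replicate 1 (-0.41, adjusted p = 0.0161).

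Sel1l and Syvn1 encode the adaptor and the ubiquitin ligase, HRD1, of the main ERAD complex. Syvn1 averaged 9.55 ± 0.12 with PPAR gamma siRNA, 9.75 ± 0.16 with control siRNA and 9.16 ± 0.20 in preadipocytes (SD, n = 3), and was higher in differentiation by 0.59 ± 0.12 (adjusted p = 0.00187). Without probe sets that can match several transcripts its rise was 0.37 (adjusted p = 0.0536). Its knockdown difference was -0.20 ± 0.12 (adjusted p = 0.293). Sel1l averaged 10.41 ± 0.02, 10.18 ± 0.04 and 10.04 ± 0.06 in that order. Its rise of 0.23 ± 0.08 with the knockdown (adjusted p = 0.0425) was lost under 14 of 19 other settings, among them the omission of any of the 9 arrays. Herpud1, a membrane protein that organises the complex, stood at 10.27, 10.22 and 10.00 and was not called in any comparison, with adjusted p of 0.821 in the knockdown, 0.151 in differentiation and 0.109 between depleted adipocytes and preadipocytes.

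The ATF4-type targets were higher in control siRNA adipocytes than in preadipocyte cultures and, apart from Asns, were not called in the knockdown. All 5 were called higher in differentiation, with a median change of 0.75, where 27.1% of all genes were and their median was 0.09. In the knockdown 1 of 5 (20.0%) was called lower, near the 16.1% of all genes, with a median of -0.11 beside -0.01. Other targets of ATF4 did not all move this way. Ddit3, grouped here with the transcription factors, was not called in differentiation (-0.39) and rose with the knockdown (0.66). Of 23 further targets, 9 were called higher and 5 lower in differentiation, and 6 and 9 in the knockdown. Trib3, a pseudokinase that binds AKT and feeds back on ATF4, had 10.43, 9.58 and 9.90 with PPAR gamma siRNA, 10.00, 10.31 and 9.94 with control siRNA and 9.19, 8.91 and 8.77 in preadipocytes. It rose 2.18-fold in differentiation (1.12 ± 0.19, adjusted p = 0.000457), and the siRNAs differed by -0.11 ± 0.19 (adjusted p = 0.743). Chac1, which degrades glutathione, had 9.80, 9.34 and 9.64 with PPAR gamma siRNA, 9.70, 9.69 and 9.43 with control siRNA and 9.05, 8.78 and 8.75 in preadipocytes, a differentiation change of 0.75 ± 0.13 (adjusted p = 0.000603) and a knockdown difference of -0.01 ± 0.13 (adjusted p = 0.964). Sesn2, a sestrin that restrains mTORC1, averaged 8.84, 8.89 and 8.54 in the same order and rose by 0.34 ± 0.09 in differentiation (adjusted p = 0.00715). Its second probe set gave 0.05 there (adjusted p = 0.651). With the Actb difference as a covariate the adjusted p in differentiation was 0.0510 for Chac1, 0.106 for Sesn2 and 0.0961 for Asns. The part of RNA integrity in these rises was not tested further.

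Asns, the asparagine synthetase that ATF4 induces when amino acids are short, behaved differently. It stood at 10.88, 10.82 and 10.92 with PPAR gamma siRNA, 11.71, 11.57 and 11.64 with control siRNA and 11.31, 11.10 and 11.18 in preadipocytes, with no overlap between the groups. Asns fell by 0.77 ± 0.09 with the knockdown (adjusted p = 3.10e-05), to below preadipocytes (-0.32 ± 0.09, adjusted p = 0.0140), a call that was lost without preadipocyte replicate 1 (adjusted p = 0.0642). Its second probe set fell by 0.90 (adjusted p = 6.24e-05). The differentiation rise was 0.44 ± 0.09 (adjusted p = 0.00125).

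The CARE matches lay in Asns, Trib3, Chac1, Gadd45g and Herpud1. Asns fell with the knockdown, while Trib3 and Chac1 were not called there. The matches are printed in the orientation of the motif, with the strand of the motif and its fixed letters in capitals. All matches share these letters because they were the pattern searched for.
Asns (chr6:7693225-7693232, minus strand): TGATGaAA
Trib3 (chr2:152344039-152344046, plus strand): TGATGtAA
Chac1 (chr2:119351049-119351056, minus strand): TGATGcAA
Gadd45g (chr13:51846574-51846581, minus strand): TGATGcAA
Herpud1 (chr8:94386317-94386324, minus strand): TGATGcAA
The Asns window is printed in the direction of the gene.
Asns (chr6:7693160-7693459, minus strand): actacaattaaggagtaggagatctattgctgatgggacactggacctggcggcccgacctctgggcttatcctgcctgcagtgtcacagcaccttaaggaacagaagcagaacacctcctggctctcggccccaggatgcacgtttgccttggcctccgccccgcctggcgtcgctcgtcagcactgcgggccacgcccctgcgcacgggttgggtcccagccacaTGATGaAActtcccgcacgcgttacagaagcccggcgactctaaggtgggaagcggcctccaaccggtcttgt

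The subunits that return eIF2alpha to its unphosphorylated form differed from each other. Ppp1r15a, or GADD34, the stress-induced subunit and a target of ATF4, had 9.47, 8.86 and 9.01 with PPAR gamma siRNA, 9.29, 9.40 and 9.07 with control siRNA and 8.29, 8.19 and 8.12 in preadipocytes. Both adipocyte groups lay above preadipocytes (differentiation 1.05 ± 0.15, adjusted p = 9.10e-05), and they overlapped each other (-0.14 ± 0.15, adjusted p = 0.575). Ppp1r15b, or CReP, the constitutive subunit, had 8.88, 8.65 and 8.87 with PPAR gamma siRNA, 10.48, 10.54 and 10.38 with control siRNA and 9.42, 9.28 and 9.15 in preadipocytes, with no overlap. The knockdown lowered Ppp1r15b 3.17-fold (-1.66 ± 0.10, adjusted p = 1.97e-07), after a rise of 1.18 ± 0.10 in differentiation (adjusted p = 1.24e-06), and left it below preadipocytes (-0.48 ± 0.10, adjusted p = 0.00309). Its second probe set fell by 1.65 in the knockdown.

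The GADD45 genes, small stress-induced proteins that bind the p38 activator MTK1 and act in growth arrest and DNA repair, were each called in all 3 comparisons. Of all genes 35.9% were called in the knockdown, 51.8% in differentiation and 36.5% between depleted adipocytes and preadipocytes. These shares are for each comparison alone, and the share called in all 3 is smaller. The pattern of directions of Gadd45b was held by 1.26% of all genes and that of Gadd45g by 7%. Gadd45a had 10.80, 10.19 and 10.59 with PPAR gamma siRNA, 9.60, 9.78 and 9.76 with control siRNA and 8.58, 8.83 and 8.48 in preadipocytes. It was the only gene of the 37 to rise in differentiation (1.08 ± 0.15, adjusted p = 7.12e-05) and again with the knockdown (0.81 ± 0.15, adjusted p = 0.00117), a pattern held by 0.929% of all genes. Gadd45b had 7.40, 8.03 and 7.78 with PPAR gamma siRNA, 5.96, 6.27 and 5.90 with control siRNA and 6.97, 6.99 and 6.95 in preadipocytes. The knockdown raised it 3.24-fold (1.69 ± 0.15, adjusted p = 3.80e-06), above preadipocytes by 0.77 ± 0.15 (adjusted p = 0.00187), although it fell by 0.93 ± 0.15 in differentiation (adjusted p = 0.000264). With the mean of its probe sets the knockdown rise of Gadd45b was 1.08 (adjusted p = 2.77e-07). Gadd45g had 9.24, 8.86 and 9.11 with PPAR gamma siRNA, 9.65, 9.52 and 9.77 with control siRNA and 7.52, 7.58 and 7.49 in preadipocytes, and rose 4.33-fold in differentiation (2.11 ± 0.11, adjusted p = 1.54e-08). Gadd45g fell by 0.58 ± 0.11 with the knockdown (adjusted p = 0.00157).

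The PPAR gamma siRNA arrays were less alike in these genes than the arrays of the other groups. The SD between replicates had a median of 0.15 with PPAR gamma siRNA, 0.10 with control siRNA and 0.08 in preadipocytes. It was 0.3 or more for 7 genes with PPAR gamma siRNA, Trib3, Ddit3, Hspa5, Ern1, Ppp1r15a, Gadd45a and Gadd45b, for Pdia4 alone with control siRNA, and for none in preadipocytes. The SD was not taken over all genes. Over all probe sets, arrays of a group correlated at 0.994 to 0.995 in either siRNA group and 0.997 to 0.998 in preadipocytes. PPAR gamma siRNA replicate 2 was the lowest of its group in 27 of the 37 genes (73.0%), where it was the lowest for 34.0% of all genes. Replicate 1 of the same group was the highest in 21 (56.8%), where it was the highest for 37% of all genes. A like figure was found in preadipocytes, where replicate 1 was the highest in 21 (56.8%) against 38.8% of all genes and replicate 3 the lowest in 19 (51.4%) against 35.1%. What sets these arrays apart was not tested. Without replicate 1 or 2 of PPAR gamma siRNA the knockdown calls on Xbp1, Dnajb9, Pdia6, Ppp1r15b, Ern1, Gadd45a and Gadd45b kept their direction and stayed under the threshold.

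Against preadipocytes, PPAR gamma siRNA adipocytes had 15 of the 37 genes (40.5%) higher and 13 (35.1%) lower, beside 19.6% and 16.9% of all genes and 26.5% and 24.5% of those above the median level. In either direction 36.5% of all genes were called. At least 2-fold, 3 were higher and 3 lower, where 4.29% and 5.01% of all genes were, and arrays did not overlap for 15 above and 14 below, against 28.8% and 21.1%. Of the 15 chaperones and folding factors 10 were lower and Dnajc3 was higher (0.47 ± 0.11, adjusted p = 0.00585). ERAD genes were higher in 4 of 7 and lower in none, and ATF4-type targets higher in 4 of 5. The largest rises were those of Gadd45a (1.90 ± 0.15) and Gadd45g (1.54 ± 0.11), and the largest falls those of Pdia6, 2.27-fold, and Pdia3, 2.23-fold. Of these 28 calls 14 had a size of at least 1.5-fold, 7 in each direction. Both comparisons with control siRNA adipocytes share the control siRNA arrays, and this one shares its arrays with them, so the 3 are not independent.

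Other genes of the same pathways were taken from 10 lists with 167 measured of 175 entries. Their counts stand beside 19.9% higher and 16.1% lower over all genes in the knockdown (29.8% and 22.7% of genes above the median level), with a median change of -0.01. In differentiation all genes gave 27.1% and 24.7% (32.2% and 36.1% above the median level) and a median of 0.09. Among 19 further ER folding and redox factors the knockdown raised 11 and lowered 1 (median change 0.51). Tmx1, a membrane-bound thioredoxin, averaged 9.92 in PPAR gamma siRNA arrays and 7.95 in control siRNA arrays (1.98 ± 0.11, adjusted p = 1.15e-07), and the collagen chaperone Serpinh1 at 12.15 against 10.82 (1.33 ± 0.11, adjusted p = 2.53e-06), with Txndc11 lower at -0.65 ± 0.12 (-0.38 with the mean of its probe sets). In differentiation 6 were higher and 9 lower (median -0.06), led by the oxidase Ero1a at 2.39 ± 0.24 and the BiP exchange factor Sil1 at 1.36 ± 0.10, against Tmx1 at -2.43 ± 0.11 and Serpinh1 at -2.32 ± 0.11. Genes of the translocon, signal peptide and oligosaccharyl transferase had 12 of 21 higher and 2 lower in the knockdown (median 0.27), and 1 higher and 13 lower in differentiation (median -0.47). Tram1, a translocon protein, rose by 1.57 ± 0.08 and the signal peptidase subunit Spcs3 by 1.02 ± 0.08, while Sec63 was lower at -0.54 ± 0.09 and the signal receptor subunit Srprb at -0.39 ± 0.11. With the mean of their probe sets Sec63 was at -0.10 (adjusted p = 0.317) and Srprb at -0.05 (adjusted p = 0.688), and the call on Srprb was also lost without PPAR gamma siRNA replicate 1 or control siRNA replicate 1 or 2. In differentiation Tram1 changed by -1.92 ± 0.08, the oligosaccharyl transferase subunit Ddost by -1.34 ± 0.11 and Sec63 by 0.57 ± 0.09.

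Transport between ER and Golgi had 10 of 22 genes (45.5%) higher and 2 (9.09%) lower in the knockdown (median 0.21), where 19.9% and 16.1% of all genes were, and 4 (18.2%) higher and 13 (59.1%) lower in differentiation (median -0.52), where 27.1% and 24.7% of all genes were. The COPII coat gene Sec24d stood at 8.75 with PPAR gamma siRNA, 7.80 with control siRNA and 9.87 in preadipocytes, and the cargo receptor Lman1 at 11.03, 10.23 and 11.18. The rise of Lman1 with the knockdown, 0.80 ± 0.10, was 0.18 with the mean of its probe sets (adjusted p = 0.151) and 0.14 without probe sets that can match several transcripts (adjusted p = 0.528). Copb1 and Sec24c were lower in the knockdown, at -0.31 ± 0.08 and -0.33 ± 0.09. The call on Copb1 was lost without PPAR gamma siRNA replicate 1 or 2 or control siRNA replicate 1 (highest adjusted p 0.0549), and that on Sec24c without control siRNA replicate 1 (adjusted p = 0.0541). Sec24c and the COPI subunit Cope were higher in differentiation at 0.55 ± 0.09 and 0.44 ± 0.08, and the KDEL receptor Kdelr3 was lower at -1.73 ± 0.15. Other ER stress transducers had 8 of 15 higher and 1 lower in the knockdown (median 0.34), and 2 higher and 8 lower in differentiation (median -0.27). Creb3l1, an ATF6-like factor of collagen-secreting cells, averaged 8.96 with PPAR gamma siRNA, 7.03 with control siRNA and 10.13 in preadipocytes, and its relative Creb3l2 rose by 1.42 ± 0.09 with the knockdown. The ATF6 protease Mbtps2 was lower in the knockdown at -0.46 ± 0.13, or -0.30 without PPAR gamma siRNA replicate 2. In differentiation Nfe2l1 and Bbc3 were higher, at 0.44 ± 0.11 and 0.30 ± 0.09, and Bcl2l11, the gene of the pro-apoptotic BIM, was lower at -1.20 ± 0.08. The call on Bbc3 was lost without control siRNA replicate 1 or preadipocyte replicate 1 or 3 (highest adjusted p 0.0995), and with the Actb covariate Nfe2l1 was at 0.27 (adjusted p = 0.318).

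Further ERAD factors had 5 of 19 (26.3%) higher and 4 (21.1%) lower in the knockdown (median -0.17), near the 29.8% and 22.7% of all genes above the median level, with the ubiquitin-conjugating enzyme Ube2j1 at 1.09 ± 0.11 and the lectin Os9 at 0.87 ± 0.11 against Ube2g2 at -0.62 ± 0.09 and the ligase Rnf5 at -0.44 ± 0.12. In differentiation 9 (47.4%) were higher and 5 (26.3%) lower (median 0.25), where 27.1% and 24.7% of all genes were, with the ligases Marchf6 at 1.15 ± 0.10 and Rnf5 at 0.99 ± 0.12 against Ube2j1 at -0.76 ± 0.11 and the mannosidase Man1b1 at -0.60 ± 0.18. The knockdown call on Rnf5 was lost without PPAR gamma siRNA replicate 3 or control siRNA replicate 2 or 3 (highest adjusted p 0.0565), and the differentiation call on Man1b1 without control siRNA replicate 3 or preadipocyte replicate 1 or 2 (highest adjusted p 0.0645). With the mean of its probe sets Ube2j1 was at 0.47 in the knockdown and -0.15 in differentiation (adjusted p = 0.113). Other targets of ATF4 and the integrated stress response had 6 of 23 (26.1%) higher and 9 (39.1%) lower in the knockdown (median -0.12), where 19.9% and 16.1% of all genes were. The amino acid transporter Slc7a5 stood at 9.55 with PPAR gamma siRNA, 7.65 with control siRNA and 9.58 in preadipocytes, and the serine synthesis enzyme Phgdh at 9.06 with PPAR gamma siRNA and 10.92 with control siRNA. The knockdown changes of Aldh1l2 and of the translation repressor Eif4ebp1 were 0.84 ± 0.22 and -1.24 ± 0.13. That of Aldh1l2 was 0.53 without PPAR gamma siRNA replicate 1, and its call was lost without control siRNA replicate 3 (adjusted p = 0.0528). In differentiation 9 (39.1%) were higher and 5 (21.7%) lower (median 0.17), with Nupr1 at 2.13 ± 0.09 and the glutamine transporter Slc1a5 at 1.97 ± 0.12 against Slc7a5 at -1.92 ± 0.20 and Atf5 at -1.72 ± 0.22.

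Cytosolic aminoacyl-tRNA synthetases, several of which ATF4 induces, had 1 of 12 (8.33%) higher and 4 (33.3%) lower in the knockdown (median -0.16), where 19.9% and 16.1% of all genes were, with Lars at 0.34 ± 0.09, Gars at -0.67 ± 0.09 and Mars1 at -0.63 ± 0.11. In differentiation 3 (25%) were higher and 7 (58.3%) lower (median -0.31), where 27.1% and 24.7% of all genes were, with Mars1 and Gars at 0.50 ± 0.11 and 0.49 ± 0.09 and Nars and Sars at -0.88 ± 0.09 and -0.79 ± 0.11. The call on Lars was lost without PPAR gamma siRNA replicate 1 or 3 or control siRNA replicate 2 (highest adjusted p 0.0719), and with the Actb covariate Mars1 was at 0.29 (adjusted p = 0.267) and Gars at 0.47 (adjusted p = 0.0520) in differentiation. eIF2, its exchange factor eIF2B and the other eIF2alpha kinases had 3 of 11 (27.3%) higher, near the 29.8% of all genes above the median level, and 4 (36.4%) lower in the knockdown (median 0.18), among them Impact, an inhibitor of the kinase GCN2, at 0.63 ± 0.09, Eif2s3x at 0.53 ± 0.10, Eif2b1 at -0.56 ± 0.08 and Eif2ak1 at -0.47 ± 0.08. In differentiation 5 were higher and 4 lower (median -0.03), with Eif2b1 at 0.97 ± 0.08, Eif2b3 at 0.89 ± 0.10, Impact at -1.89 ± 0.09 and Eif2s3x at -0.99 ± 0.10.

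Chaperones of other compartments were set beside those of the ER. The cytosolic heat shock list had 7 of 15 (46.7%) higher and 2 (13.3%) lower in the knockdown (median 0.22), where 19.9% and 16.1% of all genes were, with the small heat shock protein Cryab at 11.38 with PPAR gamma siRNA, 8.66 with control siRNA and 10.94 in preadipocytes, Hspa1b at 1.05 ± 0.12, Hspb8 at -0.74 ± 0.11 and Hspa4 at -0.61 ± 0.10. In differentiation 3 (20.0%) were higher and 8 (53.3%) lower (median -0.30), where 27.1% and 24.7% of all genes were, with Hspb8 at 9.60 in control siRNA adipocytes against 8.44 in preadipocytes, Hspb1 at 0.84 ± 0.10, Cryab at -2.28 ± 0.14 and Hspa1b at -1.01 ± 0.12. Mitochondrial chaperones and proteases gave the most uniform counts of the 10 lists, with 9 of 10 lower in the knockdown (median -0.56), where 16.1% of all genes were, and 10 of 10 higher in differentiation (median 0.85), where 27.1% of all genes were. The AAA protease subunit Afg3l2 stood at 8.44 with PPAR gamma siRNA, 9.99 with control siRNA and 8.24 in preadipocytes, and Clpx, the unfoldase of the ClpXP protease, at 9.29, 10.83 and 9.07. The cochaperone Dnaja3 rose by 1.76 ± 0.13 in differentiation. With the mean of all probe sets the changes of Clpx were -0.96 and 0.90, and Dnaja3 rose by 0.93.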

How the data were processed

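Total RNA of 9 samples was measured on 1-colour oligonucleotide arrays, 1 array a sample, in 3 groups of 3 taken from the sample titles. The authors deposited 1 log2 value per probe set and array, already normalised. Per the submitters' processing notes MAS5, RMA and the affy package 1.16.0 were used, with no role or order stated. The log2 scale was read from the values, 2.41 to 14.59, with array medians of 4.82 to 4.89. Precision is limited by the number of arrays. As the series calls the replicates technical, no SD, SE or p-value here measures the spread between independent cultures.

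The values were used as deposited. The 64 control probe sets were left out and 45037 tested with limma 3.58.1 in R 4.3.3, fitting 3 group means to the 9 arrays at once, two-sided with moderated variances, adjusted by Benjamini and Hochberg over all probe sets of a comparison. The fit was checked on simulated data. Of 35890 annotated probe sets 34945 had a single gene symbol. The members, lists and tests were chosen with earlier results of these data known. All 37 members are described. Values per array are given for called members with the 3 largest changes of their role and for Atf4, Xbp1, Ddit3 and Hspa5, and each wider list is named by its 2 largest called rises and falls. Promoters were matched by gene symbol to RefSeq windows of build GRCm38.p6.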

Additional observations from a re-analysis of the deposited data

How the results depend on the processing

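The counts of stress response genes called in each comparison were recomputed under 20 other settings. They stayed within 1.5 times their reported values in the knockdown (8 higher and 13 lower) and in differentiation (18 and 10), where the higher genes were fewest, 12, with the Actb 3' minus 5' difference as a covariate. That covariate took all genes called higher in differentiation from 4932 to 3365. A minimum change of 1.5-fold left 7 higher and 7 lower of the 15 and 13 in PPAR gamma siRNA adipocytes against preadipocytes, since that setting adds a size to the threshold. Without each array in turn, the counts ranged from 7 to 8 higher and 11 to 13 lower in the knockdown, 17 to 18 higher and 10 to 12 lower in differentiation, and 12 to 15 higher and 11 to 13 lower against preadipocytes. Single genes were followed under the 19 settings other than the 1.5-fold minimum. Of the members called, 12 of 21 kept their call under all 19 in the knockdown, 20 of 28 in differentiation and 20 of 28 against preadipocytes. In the comparison with preadipocytes the call on Syvn1 was lost under 8 of 19 settings, including the omission of PPAR gamma siRNA replicate 2 or 3 or preadipocyte replicate 1 or 3. That on Sesn2 was lost under 6, including PPAR gamma siRNA replicate 1 or 3 or preadipocyte replicate 2 or 3, and that on Atf6 under 3, including PPAR gamma siRNA replicate 3 or preadipocyte replicate 2. The knockdown change of Derl2 reversed to 0.28 with the mean of its probe sets. The same setting reversed Hspa4 to -0.26 in differentiation and -0.47 against preadipocytes and Txndc11 to -0.16 against preadipocytes, and leaving out probe sets that can match several transcripts reversed Eif4ebp1 to 0.44 against preadipocytes. The replicate numbers did not pair the arrays: deviations from the group means correlated at -0.19 to 0.17 between same-numbered arrays and at -0.22 to 0.29 between others. With a replicate block the knockdown count was 7 higher and 13 lower, Sel1l losing its call.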
